A study of Arabidopsis thaliana with 24 samples.

Results

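The comparison set out here is that of the Arabidopsis thaliana line WER65 with the mutant pye-1, both without iron, over every gene whose level reached 1 RPKM (reads counted on a gene, scaled to its length and to the size of the library) in at least 1 of the groups. That rule kept 18760 of the 33602 genes in the deposited expression table. The series measured RNA from roots of 7 day old plants in 24 samples, which make 8 groups of 3. WER65 and pye-1, like the lines WER13, PEP45, SHR23 and PPL and a wild type group, had 4 days on iron-sufficient medium and then 3 days on medium in which 0.1 mM FeEDTA was replaced by 300 µM ferrozine, a chelator of ferrous iron. A further wild type group stayed on iron. The 2 wild types are given here as wild type without iron and wild type with iron.

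The labels describe WER65 by a GFP localization of EP, a code they do not spell out, and a deposited sheet on promoter activity gives WER, the promoter of WEREWOLF, as epidermal. The genetic background of WER65 and the transgene it carries are not stated in the labels. pye-1 is a mutant of POPEYE (PYE), and its sample records carry the genotype PYE. The 6 libraries compared were deposited as 1 mean RPKM per group. Each group therefore gives 1 value per gene, no spread between replicates can be given, and no test between WER65 and pye-1 was possible. Every RPKM below is such a mean by the authors, from 1 line or mutant, and nothing in the labels says that the 3 samples of a group came from separate cultures. Steps between low values corresponded to effective libraries of 15400000 to 16870000 reads in WER65 and 20070000 to 24010000 in pye-1, so that 1 RPKM on a gene of 1 kb stood for about 48.1 reads over the 3 WER65 libraries and 66.5 over the 3 pye-1 libraries. These figures cover counting error only.

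PYE is a basic helix-loop-helix (bHLH) transcription factor that accumulates in iron-deficient roots and holds down genes of iron storage and of iron movement within the plant, while a separate regulator, FIT, drives iron uptake at the root surface. Uptake takes place in the epidermis, where FRO2 reduces ferric iron and IRT1 carries ferrous iron into the cell. Epidermal cells over the junction of cortical cells grow into root hairs, the others do not, and WEREWOLF (WER) is a MYB factor of the hairless fate. bHLH factors such as RSL4 switch on the hair's wall and tip growth genes, many of which carry a short promoter element called the root hair element.

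In the 18760 genes, WER65 was at least 2-fold higher than pye-1 in 205 (1.09%) and at least 2-fold lower in 193 (1.03%), where 2-fold means a difference of 1 or more on the log2(RPKM + 0.5) scale. Every log2 difference below is WER65 minus pye-1 on that scale unless it is said to be otherwise, while a fold is the plain ratio of the RPKM values. The 2 columns were within 1.5-fold of each other for 93.5% of the genes, and the median log2 difference was -0.01. By value alone, 9159 of the 18760 genes were higher in WER65 and 9601 were lower. Of the 205 higher genes 54 passed 4-fold, and of the 193 lower genes 30 did. A gene that reached 1 RPKM in 1 column alone can more easily show a difference; among the 18064 genes at 1 RPKM or more in both columns, 105 were higher (0.581%) and 114 lower (0.631%). At the edge of the rule, AT1G05690 was kept with 1.001 RPKM in WER65 and 0.929 in pye-1, and AT5G05260 was left out with 0.999 RPKM in WER65 and 0.478 in pye-1. Of 24 gene lists, root hair genes had the highest median difference and photosynthesis genes the lowest.

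**Figure D1:**
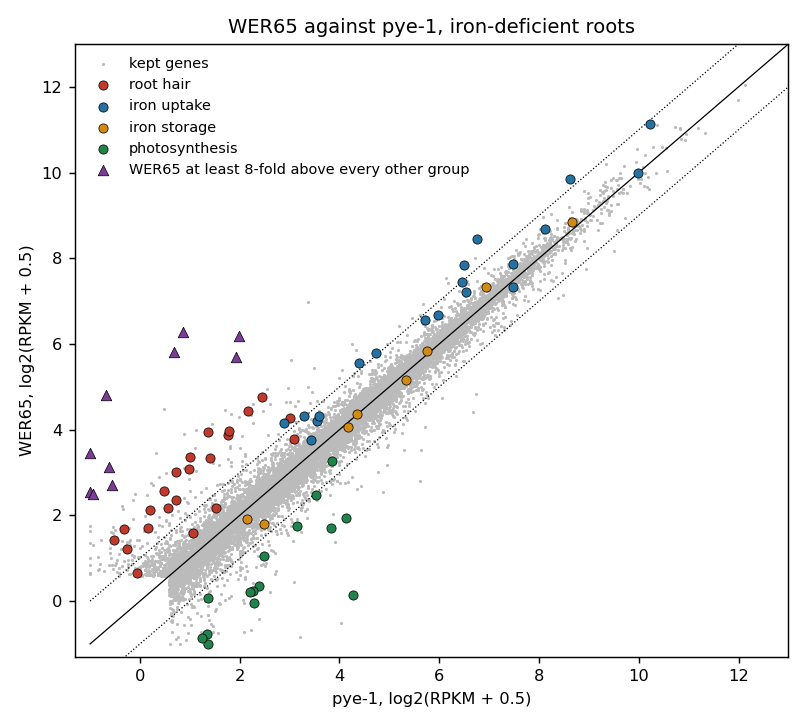
Levels of the 18760 kept genes as log2(RPKM + 0.5), with WER65 on the vertical and pye-1 on the horizontal axis, each point being the authors' mean for a gene. The solid line marks equal levels and the dotted lines a difference of 1; root hair genes lie above the solid line and most above the upper dotted line, iron uptake genes on or above the solid line but for NRAMP1, and photosynthesis genes below the lower dotted line but for LHCB4.1.

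The promoters of 3 hair genes are shown here because, of the gene lists described here, the root hair list had the highest median difference between WER65 and pye-1. Each run holds the 250 bases before the gene start, read 5′ to 3′ on the gene's strand from the RefSeq genome TAIR10.1. The files give no coordinates, and the build named in the submitters' processing notes is TAIR10. Capitals mark the root hair element core. LRX1 (chr1:4069742-4069991, plus strand) encodes a leucine-rich repeat and extensin protein of the hair wall, RHS13 (chr4:993040-993289, minus strand) is one of the root hair specific genes, and RSL4 (chr1:9654225-9654474, plus strand) encodes the bHLH factor that sets hair length.
LRX1: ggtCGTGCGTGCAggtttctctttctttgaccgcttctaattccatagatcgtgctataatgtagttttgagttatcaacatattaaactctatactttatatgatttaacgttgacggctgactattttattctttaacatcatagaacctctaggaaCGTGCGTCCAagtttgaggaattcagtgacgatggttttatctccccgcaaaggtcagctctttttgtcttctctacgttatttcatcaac
RHS13: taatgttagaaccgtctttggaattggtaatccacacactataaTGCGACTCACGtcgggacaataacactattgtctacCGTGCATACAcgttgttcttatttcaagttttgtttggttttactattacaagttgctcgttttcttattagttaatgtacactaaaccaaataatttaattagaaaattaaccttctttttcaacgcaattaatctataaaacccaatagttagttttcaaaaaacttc
RSL4: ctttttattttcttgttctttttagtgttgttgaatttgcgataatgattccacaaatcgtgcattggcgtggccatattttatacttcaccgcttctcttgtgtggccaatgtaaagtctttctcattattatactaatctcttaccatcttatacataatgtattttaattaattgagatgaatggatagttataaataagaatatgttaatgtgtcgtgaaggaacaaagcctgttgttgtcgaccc

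LRX1 had core matches starting 247 and 91 bases before the gene start and RHS13 had them at 206 and 170 bases, while the RSL4 window held none. The window of RHS19, the list member with the largest difference, also held none and is not printed. The letters searched were TGNNNGCACG, TGNNNTCACG, TGNNNNGCACG and TGNNNNTCACG for the core and CACGTG for the G-box, on both strands, in a window of 300 bases that ran from 250 bases before the gene start to the first 50 bases of the gene. The core was found in 9 of the 22 root hair windows (40.9%) and in 944 of the 18674 windows of all kept genes that could be read (5.06%). Hair genes are known for carrying this element, so its share in this list is no result about WER65 or pye-1. The G-box stood in 3 of 8 iron storage windows (37.5%), 4 of 15 photosynthesis windows (26.7%), 1 of 19 iron uptake windows (5.26%) and 0 of 22 root hair windows. Among all 18674 windows 1610 held it (8.62%). No match of one motif overlapped a match of the other in the list promoters searched. A match describes these letters and is not a binding site.

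PYE itself (AT3G47640, chromosome 3, 17567126 to 17569394 in TAIR10.1) stood at 27.5 RPKM in WER65, 20.6 in pye-1, 45.1 in wild type without iron and 11 in wild type with iron. The log2 difference of 0.41 between WER65 and pye-1 is under 2-fold, and both levels lay below that of iron-deficient wild type. The authors' deposited tables list PYE as lower than in iron-deficient wild type in WER65 (q = 0.000307) and in pye-1 (q = 0.0001). Reads from an endogenous copy and from any introduced copy are not separated in these values, so the level does not check the label of either group. WER (AT5G14750) stood at 4.57 RPKM in WER65 and 5.9 in pye-1, with 4.76 in wild type without iron, a difference of -0.34 between WER65 and pye-1.

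Root hair genes had the highest median difference of the 24 lists. Of 23 listed, 22 were kept and every one of them was higher in WER65 than in pye-1, 18 of them at least 2-fold, with differences from 0.51 to 2.60 and a median of 1.94. Since 8 of the 22 passed 1 RPKM in WER65 alone and so had to differ, the 14 that passed it in both groups are the better description: 11 of these 14 were at least 2-fold higher and their median difference was 2.11. The member left out, XTH26, had 0.168 RPKM in WER65 and 0.0287 in pye-1.

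RHS19 (AT5G67400), a root hair specific gene, had 15 RPKM in WER65, 2.92 in WER13, 5.06 in PEP45, 3.7 in SHR23, 18 in PPL, 2.07 in pye-1, 25.2 in wild type without iron and 62.5 in wild type with iron. Its level in WER65 was 7.27-fold that in pye-1, and it lay with PPL and wild type, above pye-1 and the other 3 lines. RSL4 (AT1G27740) had 9.84 RPKM in WER65, 3.46 in WER13, 1.75 in PEP45, 1.31 in SHR23, 10.8 in PPL, 1.49 in pye-1, 13.3 in wild type without iron and 16.1 in wild type with iron. The same division was seen, with WER65 6.59-fold over pye-1 and WER13 the next lower group.

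RHS13 (AT4G02270) had 26.5 RPKM in WER65, 5.3 in WER13, 9.37 in PEP45, 5.88 in SHR23, 29.9 in PPL, 4.97 in pye-1, 42.3 in wild type without iron and 96.3 in wild type with iron. LRX1 (AT1G12040) had 7.56 RPKM in WER65, 2.46 in WER13, 1.92 in PEP45, 1.3 in SHR23, 9.92 in PPL, 1.15 in pye-1, 13.5 in wild type without iron and 31.4 in wild type with iron. In both genes WER65 came close to PPL, and both promoters are printed above. The differences between WER65 and pye-1 were 2.31 for RHS13 and 2.29 for LRX1.

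Other genes chosen as markers of hair cells were also higher in WER65. EXPA7 (AT1G12560), an expansin that loosens the growing hair wall, had 14.1 RPKM in WER65 and 2.88 in pye-1, with 3.11 in WER13, 3.93 in PEP45, 3.17 in SHR23, 20.5 in PPL and 25.9 in wild type without iron. A second hair expansin, EXPA18 (AT1G62980), had 7.95 RPKM in WER65 and 1.47 in pye-1, and PRP3 (AT3G62680), a proline-rich wall protein, had 21.2 RPKM in WER65 and 4 in pye-1. RBOHC (AT5G51060), the NADPH oxidase of the growing tip, differed less, with 13.3 RPKM in WER65 and 7.98 in pye-1, a difference of 0.70. It was one of the 4 kept members under 2-fold, the others being the wall protein gene LRX2 at 0.64, the phosphoinositide kinase gene PIP5K3 at 0.51 and RHS15 at 0.72, which are named here after their values were seen.

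Set against the other groups, WER65 exceeded WER13, PEP45, SHR23 and pye-1 in 22 of the 22 root hair genes, and it lay under iron-deficient wild type in 20 of them and under PPL in 17. The filter favours a high rank of WER65 in the 8 of these 22 that were kept through WER65 alone. The list's median level was 6.52 RPKM in WER65, against 2.39 in WER13, 1.91 in PEP45, 1.72 in SHR23, 7.43 in PPL, 1.48 in pye-1, 10.5 in wild type without iron and 26.9 in wild type with iron. WER13, the other line named for WER, is set here against the same pye-1 libraries. In WER13, 1 of the same 22 genes was at least 2-fold higher than pye-1 and the median difference was 0.40. The filter used WER65 and pye-1 and not WER13, so the 8 kept through WER65 alone favour WER65 here too. Over the same 18760 genes WER13 was at least 2-fold higher than pye-1 in 136 and lower in 366. Over the 18729 genes at 1 RPKM in WER13 or pye-1, it was higher in 153 (0.817%) and lower in 365 (1.95%). The labels give the GFP localization of WER13 as EP-C, against EP for WER65. In RNA from whole roots, fewer cells of a type and less RNA per cell cannot be told apart.

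**Figure D2:**
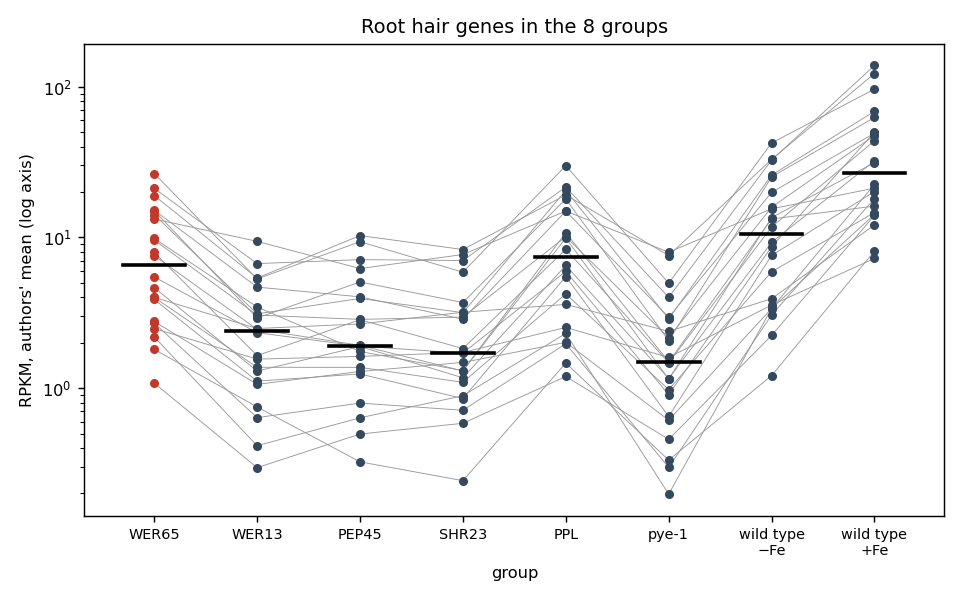
RPKM of the 22 kept root hair genes in the 8 groups, on a log axis, with 1 point for each gene, thin lines joining the points of a gene and thick bars marking the median. WER65 (red) has a median of 6.52, nearer to PPL at 7.43 than to pye-1 at 1.48 or WER13 at 2.39.

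Against iron-deficient wild type, the authors' deposited table for WER65 lists 6 of the 22 root hair genes as lower and none as higher. The authors' deposited table for pye-1 lists 22 of 22 as lower. Over the 18760 kept genes, the authors' deposited tables list 1547 as higher (8.25%) and 2010 as lower (10.7%) in WER65, and 1746 as higher (9.31%) and 1769 as lower (9.43%) in pye-1. Both tables use the same wild type libraries, and a gene that is listed in one and not in the other is not thereby shown to differ between WER65 and pye-1. EXPA7 is in both, with q = 0.00259 for WER65 and q = 7.08e-06 for pye-1 in the authors' deposited tables, at 54.6% of the wild type level in WER65 and 11.1% in pye-1. RSL4 is listed for pye-1 alone in the authors' deposited tables (q = 4.53e-05), at 74.2% of wild type in WER65 and 11.3% in pye-1.

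Wall protein families, drawn up from RefSeq product names after the values had been seen, overlap the root hair list in part. Of 33 kept extensin or extensin-like genes, 12 were at least 2-fold higher in WER65 than in pye-1 and 1 was lower, with a median of 0.55. LRX1 was the 1 root hair list member among these 12. In the 30 of them at 1 RPKM or more in both groups, 10 were higher and 1 lower. Extensins proper are rod-like glycoproteins of the cell wall, and their repeats are so alike that reads may have been divided among them. The family, matched by name, also holds genes of other kinds, such as the pollen allergen and extensin gene AT3G09925 and the receptor kinase gene PERK1. AT5G06630, a proline-rich extensin-like gene, had 14.4 RPKM in WER65 and 1.33 in pye-1, with 14.4 in wild type without iron. EXT6 (AT2G24980) had 15.5 RPKM in WER65 and 1.68 in pye-1, with 19.1 in wild type without iron. EXT10 (AT5G06640) had 21.5 RPKM in WER65 and 2.77 in pye-1, and EXT12 (AT4G13390) 17 RPKM in WER65 and 2.24 in pye-1. These 4 had differences of 2.67 to 3.02. EXT3 (AT1G21310), named after its values were seen, had the highest level of the family, 4245 RPKM in WER65 and 4491 in pye-1, a difference of -0.08.

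Secreted CAP proteins, a cysteine-rich family, had 10 kept members, of which 5 were at least 2-fold higher in WER65 and none 2-fold lower, with a median of 0.97. Of these 10, 3 reached 1 RPKM in WER65 only. Of the 7 members at 1 RPKM or more in both groups, 2 were at least 2-fold higher and the median was -0.19. AT4G33730 had 5.04 RPKM in WER65 and 0.599 in pye-1, with 8.33 in wild type without iron. AT1G50050 had 8.18 RPKM in WER65 and 1.35 in pye-1, with 1.51 in wild type without iron, and so stood above wild type as well; the authors' deposited table lists it as higher in WER65 (q = 0.000581). Class III peroxidases were mixed, with 4 of 50 kept members at least 2-fold higher and 2 lower. Among the 47 peroxidases at 1 RPKM or more in both groups, 3 were higher and 2 lower. Expansins were mixed too, with 2 of 20 higher and 1 lower. The 2 higher expansins were EXPA7 and EXPA18, given above with the root hair list, so the family adds no further higher gene.

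The genes that set which epidermal cells make hairs differed little. Of 12 listed, 10 were kept, none differed 2-fold in either direction, and the median difference was 0.24. With members at 5 RPKM or more only, that median was -0.10. RHD6 (AT1G66470), the bHLH factor that starts a hair, had 4.25 RPKM in WER65 and 2.44 in pye-1, a difference of 0.69. CPC (AT2G46410), a small MYB protein of the hair fate, had 16.3 RPKM in WER65 and 9.99 in pye-1, and it is listed as lower than in wild type for pye-1 in the authors' deposited table (q = 0.0155). GL2 (AT1G79840), a homeodomain factor of hairless cells, had 2.52 RPKM in WER65 and 1.92 in pye-1. MYB23 (AT5G40330), which acts with WER, had 1.13 RPKM in WER65 and 0.745 in pye-1.

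The iron uptake list, whose members are called uptake genes here, was second by median. It also holds the regulator genes FIT, MYB10 and MYB72. Metal sequestration transporter genes such as IREG2, HMA3 and MTP3 are in it as well. All 19 listed genes were kept, 18 were higher in WER65 by value, 7 at least 2-fold, none was 2-fold lower, and the median difference was 0.84. IRT1 (AT4G19690, chromosome 4, 10707344 to 10709015 in TAIR10.1) had 2232 RPKM in WER65, 3372 in WER13, 2141 in PEP45, 3430 in SHR23, 3186 in PPL, 1194 in pye-1, 3853 in wild type without iron and 237 in wild type with iron. The difference between WER65 and pye-1 was 0.90, and pye-1 was the lowest of the iron-deficient groups.

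FRO2 (AT1G01580) had 924 RPKM in WER65, 1331 in WER13, 682 in PEP45, 1238 in SHR23, 1740 in PPL, 391.7 in pye-1, 1966 in wild type without iron and 39.6 in wild type with iron, a 2.36-fold ratio of WER65 to pye-1. AT3G12900, a 2-oxoglutarate- and Fe(II)-dependent oxygenase gene, had 348 RPKM in WER65, 572 in WER13, 256 in PEP45, 730 in SHR23, 1062 in PPL, 107 in pye-1, 1492 in wild type without iron and 1.001 in wild type with iron. It had the largest difference of the list, 1.69, and reached 23.4% of the iron-deficient wild type level in WER65 and 7.2% in pye-1. CYP82C4 (AT4G31940), a cytochrome P450 of coumarin synthesis, had 228 RPKM in WER65 and 89.4 in pye-1, with 1016 in wild type without iron.

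ZIP8 (AT5G45105), a metal transporter gene, had 17.3 RPKM in WER65 and 6.89 in pye-1, with 97.6 in wild type without iron. FIT (AT2G28160), the bHLH factor above these genes, had 102 RPKM in WER65 and 62.5 in pye-1, with 240 in wild type without iron and 87.3 in wild type with iron, a difference of 0.70. The other 3 members past 2-fold, named after their values were seen, were the glucosidase gene BGLU42 at 1.17, the transporter gene IRT2 at 1.06 and the cation efflux gene AT3G58060 at 1.02. At the other end, also named after their values were seen, were AHA2, the proton pump gene, with 1014 RPKM in WER65 and 1011 in pye-1, and the metal transporter gene NRAMP1, with 160 RPKM in WER65 and 177 in pye-1, the 1 member that was lower by value.

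In 0 of the 19 uptake genes did WER65 exceed all of WER13, PEP45, SHR23 and pye-1, and in all 19 it lay under iron-deficient wild type. Side by side with the same pye-1 libraries, WER65 had a median difference of 0.84 with 7 members at least 2-fold higher, and WER13 a median difference of 1.15 with 11. Against iron-deficient wild type the authors' deposited tables list 16 of the 19 as lower in WER65 and 18 as lower in pye-1, IRT1 with q = 0.000635 for WER65 and q = 1.48e-05 for pye-1. Root hair and uptake genes thus differed in where WER65 stood among the groups. It was above WER13, PEP45 and SHR23 in 22 of 22 root hair genes and in 0 of 19 uptake genes. The 22 include 8 kept through WER65 alone, where the filter favours a high rank of WER65. The other 14, and all 19 uptake genes, reached 1 RPKM in both WER65 and pye-1. The share of all kept genes with such a rank of WER65 was not computed.

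**Figure D3:**
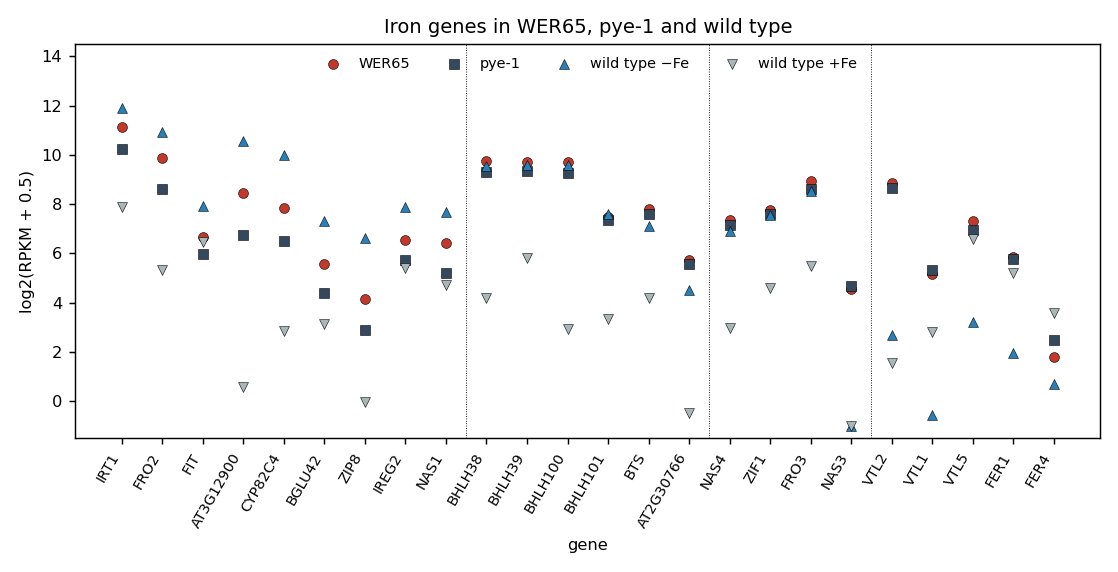
Levels of 24 iron genes as log2(RPKM + 0.5) in WER65 (red circles), pye-1 (dark squares), wild type without iron (blue triangles) and wild type with iron (grey triangles), each symbol being the authors' mean. Dotted lines divide uptake genes and NAS1, regulators, genes of iron movement and storage genes. WER65 lies above pye-1 in the first block and nearer to it in the others, and VTL2, VTL1 and NAS3 stand above both wild types in WER65 and in pye-1.

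Genes of iron movement within the plant gave 15 kept members of 18, with a median of 0.14 and 1 member at least 2-fold higher. That was NAS1 (AT5G04950), a nicotianamine synthase gene, with 85.2 RPKM in WER65 and 36.3 in pye-1, with 207 in wild type without iron. NAS2 (AT5G56080), a second synthase gene, had 2.25 RPKM in WER65 and 1.01 in pye-1, a difference of 0.87. NAS3 (AT1G09240) had 22.7 RPKM in WER65 and 24.8 in pye-1 and was listed at 0 in both wild types. The vacuolar nicotianamine transporter gene ZIF1 (AT5G13740) had 214 RPKM in WER65 and 194 in pye-1, and FRO3 (AT1G23020), a ferric reductase gene, 488 RPKM in WER65 and 395 in pye-1. NAS4 (AT1G56430) had 163 RPKM in WER65 and 142 in pye-1.

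Of the iron regulators 19 of 20 were kept, none differed 2-fold, and the median difference was 0.19. BHLH38 (AT3G56970) had 872 RPKM in WER65 and 639 in pye-1, BHLH39 (AT3G56980) 826 in WER65 and 642 in pye-1, BHLH100 (AT2G41240) 837 in WER65 and 618 in pye-1, and BHLH101 (AT5G04150) 179 in WER65 and 164 in pye-1. These 4 related bHLH factors act with FIT. BTS (AT3G18290), a ubiquitin ligase gene that checks the response, had 221 RPKM in WER65 and 195 in pye-1. AT1G18910, annotated as a zinc ion binding protein gene, had the largest difference of the list, 0.59, with 38.8 RPKM in WER65 and 25.6 in pye-1. AT2G30766, of the same list, had 53 RPKM in WER65 and 46.3 in pye-1.

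Iron storage genes, the group that PYE is known to hold down, stood at like levels in the pair. Of 9 listed, 8 were kept, none differed 2-fold, and the median difference was -0.05. The 8 include NEET (AT5G51720), an iron-sulfur protein gene and not one of storage proper, with a difference of 0.0017. VTL2 (AT1G76800), a vacuolar iron transporter family gene, had 460 RPKM in WER65, 486 in WER13, 519 in PEP45, 511 in SHR23, 5.58 in PPL, 404 in pye-1, 5.96 in wild type without iron and 2.44 in wild type with iron. FER1 (AT5G01600), a ferritin gene, had 56.5 RPKM in WER65, 57.9 in WER13, 59.9 in PEP45, 41.3 in SHR23, 2.79 in PPL, 53.5 in pye-1, 3.34 in wild type without iron and 36.2 in wild type with iron. In both genes WER65 lay with pye-1 and not with PPL or wild type without iron.

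FER4 (AT2G40300), a ferritin gene, had the largest difference of the storage genes, -0.69, with 2.95 RPKM in WER65 and 5.07 in pye-1, and 1.11 in wild type without iron. VTL5 (AT3G25190), a second transporter of the family, had 160 RPKM in WER65 and 121 in pye-1. FER2 (AT3G11050) had 3.26 RPKM in WER65 and 3.9 in pye-1. Against iron-deficient wild type, all 8 kept members of the storage list, NEET included, rose in both groups in the authors' deposited tables. These tables share the wild type libraries. FER4 has q = 0.00259 for WER65 and q = 0.00018 for pye-1 in them. The 8 genes reported elsewhere as PYE targets, several of which are storage or movement genes given above, had a median difference of 0.11 and none at 2-fold, and in 0 of them did WER65 lie below wild type without iron.

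**Figure D4:**
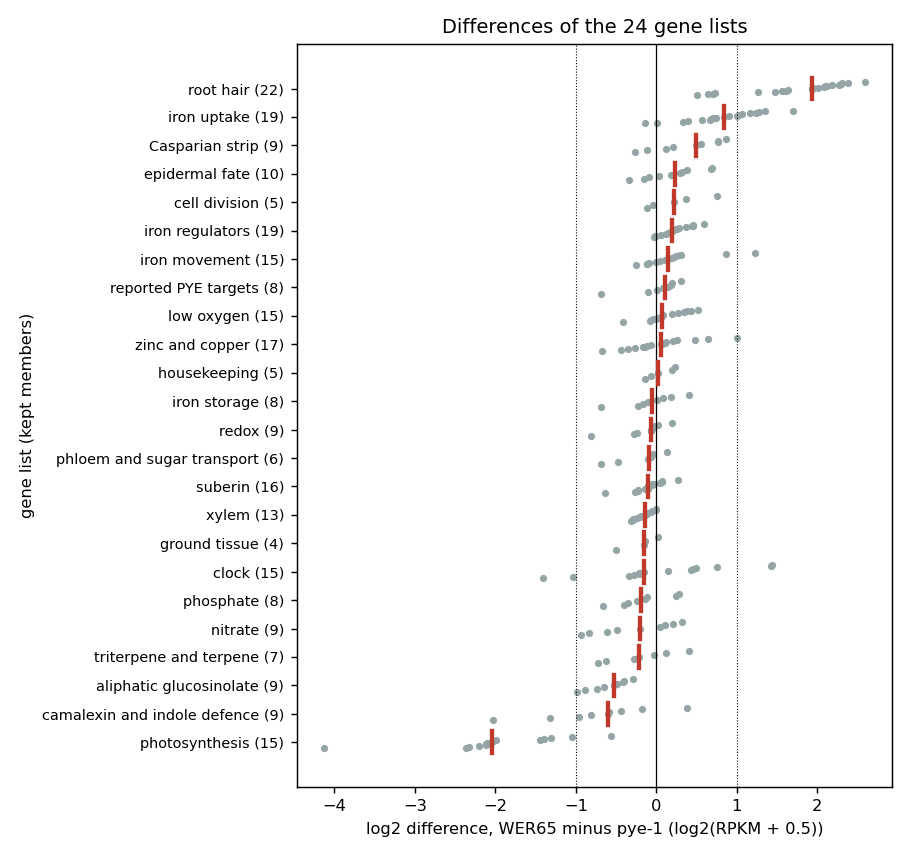
Log2 difference between WER65 and pye-1, on log2(RPKM + 0.5), of the kept members of 24 gene lists, the number of kept members being in parentheses. Grey points are genes, red bars medians and dotted lines a 2-fold difference; root hair (median 1.94) and photosynthesis (median -2.05) are the 2 lists whose median passes 2-fold.

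Photosynthesis genes, which mark green tissue in a root sample, were the group that was lowest in WER65. Of 20 listed, 15 were kept, 14 of these were at least 2-fold lower and the median difference was -2.05. As 9 of the 15 passed 1 RPKM in pye-1 alone, the 6 that passed it in both groups are the better description, with 5 at least 2-fold lower and a median of -1.42. LHCB1.3 (AT1G29930), a light-harvesting chlorophyll protein gene, had 0.597 RPKM in WER65, 3.52 in WER13, 136 in PEP45, 5.16 in SHR23, 23.3 in PPL, 18.7 in pye-1, 108 in wild type without iron and 50.9 in wild type with iron. RBCS1A (AT1G67090), a Rubisco small subunit gene, had 3.33 RPKM in WER65, 3.97 in WER13, 72.3 in PEP45, 14.4 in SHR23, 28.5 in PPL, 17.1 in pye-1, 62.6 in wild type without iron and 52.6 in wild type with iron. WER65 and WER13 were low and PEP45 and both wild types high. Against iron-deficient wild type, the authors' deposited tables list 10 of the 15 as lower in WER65 and 0 in pye-1. The median log2 differences to that wild type were -3.65 for WER65 and -1.51 for pye-1. LHCB1.3 is listed in neither table, though its mean was far below wild type in both groups, and the spread behind these means cannot be seen. RBCS3B (AT5G38410) was listed at 0 in WER65 and had 2.08 RPKM in pye-1, and LHCB1.1, LHCB1.2 and LHCB1.3, like the RBCS genes, are near-identical copies among which reads may be divided.

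The summed level of the 20 photosynthesis genes was 29.4 RPKM in WER65, 30.5 in WER13, 499 in PEP45, 57.4 in SHR23, 150 in PPL, 117 in pye-1, 423 in wild type without iron and 424 in wild type with iron. In WER65, 4 of the 20 (LHCB2.1, RBCS1B, RBCS2B and RBCS3B) were listed at 0. For the 23 root hair genes the sum was 194 RPKM in WER65, 61.6 in WER13, 69.7 in PEP45, 59.8 in SHR23, 216 in PPL, 48.3 in pye-1, 301 in wild type without iron and 914 in wild type with iron. WER13 was thus near WER65 in green tissue transcripts and nearer to pye-1 in hair transcripts, and PEP45, with the highest sum of green tissue transcripts, had a hair sum nearer to pye-1 than to WER65. Whether the green tissue content took part in other differences was not tested.

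Other tissue markers differed less. Casparian strip genes, of the endodermal barrier, had 9 kept members, a median of 0.49 and none at 2-fold, with CASP1 (AT2G36100) at 45.7 RPKM in WER65 and 26.7 in pye-1. Suberin genes had 16 kept members, a median of -0.10 and none at 2-fold. The 13 kept xylem genes were all lower in WER65 by value, from -0.31 to -0.002, with a median of -0.15 and none at 2-fold, CESA7 (AT5G17420), a cellulose synthase gene of the secondary wall, having 9.73 RPKM in WER65 and 12 in pye-1. Phloem and sugar transport genes had a median of -0.09, cell division genes 0.22 and ground tissue genes -0.15, none of them with a member at 2-fold. With members at 5 RPKM or more only, the phloem and sugar transport median was -0.30. Of the cortex markers chosen, AT1G62500 and PEP did not reach 1 RPKM in either group. Housekeeping genes had a median of 0.02, ACT2 (AT3G18780), an actin gene, having 473 RPKM in WER65 and 403 in pye-1.

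Genes for the synthesis of defence compounds were mostly lower in WER65 by value. All 9 kept aliphatic glucosinolate genes were lower, with differences of -0.98 to -0.29, and none reached 2-fold; BCAT4 (AT3G19710), of the first step of methionine chain elongation, had 4.62 RPKM in WER65 and 9.62 in pye-1, with 86.6 in SHR23. Among the 9 kept camalexin and indole defence genes 8 were lower, 2 of them at least 2-fold, with a median of -0.59. CYP82C2 (AT4G31970), a cytochrome P450 of indole cyanogen synthesis, had 1.13 RPKM in WER65 and 6.13 in pye-1, with 0.874 in wild type without iron, and AT1G26380, a FAD-binding Berberine family gene, had 12.1 RPKM in WER65 and 31 in pye-1, with 21.3 in wild type without iron. CYP71A12 (AT2G30750), a camalexin pathway P450 gene, had 79.9 RPKM in WER65 and 156 in pye-1. In the whole family of FAD-binding Berberine genes, taken by product name after the values were seen, 2 of 18 kept members were at least 2-fold lower and the median was -0.47.

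The circadian clock genes differed in both directions. Of 15 kept members 2 were at least 2-fold higher and 2 lower, with a median of -0.16. Of these 15, 2 reached 1 RPKM in WER65 alone, LHY being 1 of them. Among the 13 at 1 RPKM or more in both groups, 1 was at least 2-fold higher and 2 lower, with a median of -0.21. LHY (AT1G01060), which peaks at dawn, had 2.17 RPKM in WER65, 2.65 in WER13, 0.346 in PEP45, 1.85 in SHR23, 0.192 in PPL, 0.488 in pye-1, 0.336 in wild type without iron and 1.45 in wild type with iron. RVE8 (AT3G09600), of the same MYB family, had 8.99 RPKM in WER65 and 3.03 in pye-1. PRR7 (AT5G02810), which follows in the day, had 6.33 RPKM in WER65, 5.91 in WER13, 14.2 in PEP45, 4.25 in SHR23, 21.5 in PPL, 17.6 in pye-1, 21.5 in wild type without iron and 45 in wild type with iron. GI (AT1G22770), an evening gene, had 7.26 RPKM in WER65 and 15.5 in pye-1. Among the iron-deficient groups, WER65, WER13 and SHR23 were at one end in LHY, RVE8 and PRR7, and PEP45, PPL, pye-1 and wild type at the other. The hour of harvest is not given in the labels, and its part in these values was not tested.

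The remaining lists showed few 2-fold differences. Zinc and copper genes had 1 member of 17 at least 2-fold higher, the zinc transporter gene ZIP9 (AT4G33020), with 6.27 RPKM in WER65 and 2.88 in pye-1 against 31.3 in wild type without iron. Low oxygen genes had 15 kept members with a median of 0.07, redox genes 9 with a median of -0.07, nitrate genes 9 with a median of -0.21, phosphate genes 8 with a median of -0.19, and triterpene and terpene genes 7 with a median of -0.22, or 0.04 with members at 5 RPKM or more only. No member of these 5 lists reached 2-fold. The largest difference in them was that of NRT2.1 (AT1G08090), a high-affinity nitrate transporter gene, with 26.2 RPKM in WER65 and 50.4 in pye-1. CAT3 (AT1G20620), a catalase gene, had 176 RPKM in WER65 and 308 in pye-1.

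The 10 genes with the largest excess in WER65, among those at 5 RPKM or more in the higher group, included no member of the hair or iron lists. AT4G16215, an uncharacterized protein gene, had 27.4 RPKM in WER65 and 0.12 in pye-1, a difference of 5.49. AT5G15360, also uncharacterized, had 77.1 RPKM in WER65 and 1.33 in pye-1, and the pseudogene SADHU3-2 (AT3G42658) had 55.5 RPKM in WER65 and 1.11 in pye-1. AT4G03156, a small GTPase-like protein gene, had 10.4 RPKM in WER65 and was listed at 0 in pye-1. Non-coding RNA loci were among them. AT2G01422 had 72.8 RPKM in WER65 and 3.45 in pye-1, AT4G04223 had 21.7 in WER65 and 0.904 in pye-1, and AT1G67105 had 127 in WER65 and 9.84 in pye-1. AT5G24240, a phosphatidylinositol 4-kinase gene, had 51.2 RPKM in WER65 and 3.3 in pye-1. AT3G28899 had 8.23 RPKM in WER65 and 0.147 in pye-1, and the pseudogene AT4G01980 had 5.32 RPKM in WER65 and was listed at 0 in pye-1.

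Most of these loci were far higher in WER65 than in any other group. A rule made after the values were seen, a level of 5 RPKM or more and at least 8-fold that of the next highest of the 8 groups, was met by 10 loci in WER65. WER13 and SHR23 had 1 such locus each, PEP45, PPL, pye-1 and wild type without iron had none, and wild type with iron had 29. The 10 comprise 6 protein-coding genes, 2 non-coding RNA loci and 2 pseudogenes. For AT5G24240 the levels were 51.2 RPKM in WER65 and between 2.92 and 5.8 in the other 7 groups; for AT4G03156 they were 10.4 RPKM in WER65 and 0.0806 or less in the other 7. AT1G67105 was not among the 10, since WER13 had 307 RPKM. By the mirror rule 0 loci were low in WER65, as in every other iron-deficient group, and 140 were low in wild type with iron. The rule for high loci set WER65 at least 8-fold above iron-deficient wild type, so a listing as higher is no separate support. All 10 loci are listed as higher in WER65 than in iron-deficient wild type in the authors' deposited table, AT2G01422 with q = 4.51e-08. The authors' deposited table for WER13 also lists 2 of them as higher, AT5G15360 (q = 6.04e-06) and AT2G01422 (q = 1.53e-05), and AT5G24240 as lower (q = 0.000673). AT5G15360 had 77.1 RPKM in WER65 and 9.44 in WER13, with 0.61 in wild type without iron, and AT2G01422 had 72.8 RPKM in WER65 and 5.85 in WER13, with 0.6 in wild type without iron. The strand setting of the counting is not given in the sources used here, so reads of an overlapping or antisense gene cannot be told apart at these loci.

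**Figure D5:**
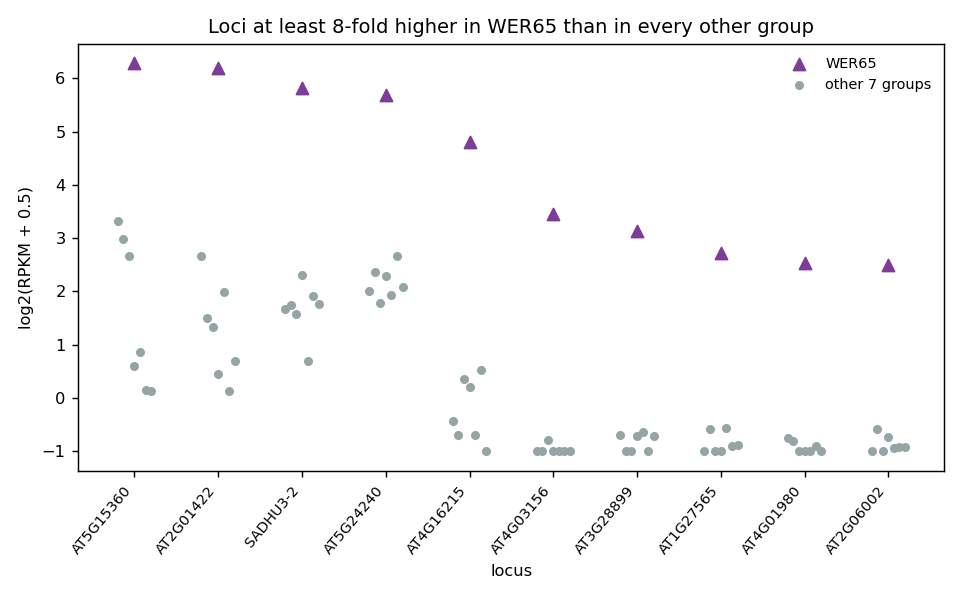
Levels, as log2(RPKM + 0.5), of the 10 loci that met this rule in WER65, with WER65 as purple triangles and the other 7 groups as grey points, each being the authors' mean. The lowest value on the axis stands for a locus listed at 0; AT5G15360 is the highest locus in WER65 at 77.1 RPKM, and its next group, WER13, has 9.44 RPKM.

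The 10 genes with the largest deficit in WER65, under the same level rule, held 4 genes of photosynthesis. LHB1B2 (AT2G34420), a light-harvesting protein gene, had 0.196 RPKM in WER65 and 15.9 in pye-1, the largest deficit of all kept genes at -4.56, and PSAF (AT1G31330), of photosystem I, had 0.662 RPKM in WER65 and 5.61 in pye-1. The others of the 4 were LHCB1.3 and RBCS1A, given above. THI1 (AT5G54770), of thiazole synthesis in the chloroplast, had 2.08 RPKM in WER65 and 14.48 in pye-1. MLP28 (AT1G70830), a MLP-like protein gene, had 0.06 RPKM in WER65, 1.54 in WER13, 8.29 in PEP45 and 8.71 in pye-1, with 4.46 in wild type without iron. GRP3S (AT2G05380), a glycine-rich protein gene, had 6.47 RPKM in WER65 and 48.1 in pye-1, and AT2G05540, of the same family, 0.871 RPKM in WER65 and 8.05 in pye-1. TIP2;3 (AT5G47450), a tonoplast aquaporin gene, had 5.31 RPKM in WER65 and 28.8 in pye-1, against 113 in wild type without iron and 1078 in wild type with iron. EARLI1 (AT4G12480), a lipid-transfer protein gene, had 20.8 RPKM in WER65 and 102 in pye-1. MRD1 (AT1G53480), named after its values were seen, was listed at 0 in WER65 and had 0.0358 RPKM in WER13, 0.052 in PEP45, 2.77 in SHR23, 0.0457 in PPL, 1.93 in pye-1, 1.96 in wild type without iron and 1.5 in wild type with iron, so that pye-1, SHR23 and the wild types stood apart from the other 4 lines.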

How the data were processed

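Libraries were made from poly(A)-selected RNA of razor-separated roots with a directional kit, per the labels' protocols. The submitters' processing notes name the build TAIR10 and the tools FastQC, TopHat2 and edgeR, without versions, order or roles. Which program counted the reads, whether by strand, over which lengths and with what filter is not given in the sources used here. The authors deposited their RPKM values as 1 column per group, a mean over its 3 libraries, and 0 columns of values were left without a group. The q-values were deposited by the authors in tables that list genes under 0.05, and the test behind them is not given in the sources used here. Genes were matched to RefSeq TAIR10.1 by locus (32835 of 33602, 97.7%).

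Genes reaching 1 RPKM in WER65 or pye-1 were kept, a pseudocount of 0.5 was added, and differences of log2(RPKM + 0.5) were taken, a scale that understates the change of low genes. With 1 mean per group no spread, interval or test was computed, and the limma fit considered for replicate columns could not be made. Effective library sizes came from the spacing of low values of single-exon genes, to within 0.2%. Low values behind 1 RPKM rest on few reads of short genes. Counts of list members at 2-fold, by value and in the authors' listings can be set beside those given for all kept genes. Counts of the rank of WER65 among the groups were made for the lists only. Members and lists were chosen with earlier results of these data known, as was the rule for named genes. It takes PYE and WER, 16 iron genes, at most 4 genes per list described, by size of difference, and the 10 largest differences in each direction at 5 RPKM or more. Alternatives were the pseudocounts 0.1 and 1, no filter, a minimum of 5 RPKM, 1.5-fold and 3-fold, and centring on the median of genes at 10 RPKM or more. Python 3.11.15, pandas 2.3.3, numpy 2.4.6 and matplotlib 3.10.9 were used, and the calculation was tested on simulated data.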

Additional observations from a re-analysis of the deposited data

How the results depend on the processing

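With RPKM of at least 5 in either group, 109 genes were at least 2-fold higher and 99 lower in WER65 than in pye-1, 11 root hair members were at least 2-fold higher, 6 photosynthesis members were at least 2-fold lower and the photosynthesis median was -1.45. The stricter minimum leaves fewer genes, which lowers the counts. At 1.5-fold 566 genes were higher and 659 lower, and at 3-fold 98 were higher and 66 lower. Both pseudocounts, no filter, and centring, which shifts every difference by 0.01, left the counts and the root hair, iron uptake and photosynthesis medians within 1.5 times of the values reported. Of the 24 list medians, 3 changed sign with RPKM of at least 5, those of epidermal fate (-0.10), of triterpene and terpene genes (0.04) and of iron storage (0.0017). The iron storage median also changed sign with no filter (0.0017), where the epidermal fate median was 0.11 and the nitrate median -0.01. With no filter the ground tissue median was -0.06 and that of zinc and copper 0.03. With RPKM of at least 5 the phloem and sugar transport median was -0.30. Centring took the housekeeping median to 0.007. Of the 123 named genes, 10 had a difference that moved over 1.5 times with the pseudocount, all of them with a level under 1 RPKM in 1 of the groups, and none changed direction under the pseudocounts or centring. No paired analysis was possible because the deposited values are 1 mean per group, and for the same reason no library could be left out. No difference between WER65 and pye-1 has a replicate check, and differences of short genes near 1 RPKM rest on few reads.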
